A study of Mus musculus with 12 samples.

Results

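The 35 genes described here encode the subunits of the transcription factor NF-kB, their inhibitors and kinases, feedback proteins and a set of known target genes. They were taken by gene symbol from a list of names chosen with earlier results of these data known. Member counts set beside shares of all genes therefore describe this list and are no independent test. All 35 were found among the 24421 genes of both count tables. Every member passed the filter on low counts, as did 12164 genes in all. NF-kB is a family of transcription factors built as dimers of 5 related subunits, encoded by Nfkb1, Nfkb2, Rel, Rela and Relb. In unstimulated cells inhibitor proteins of the IkB type hold the dimers back. Toll-like receptor signals activate the IkB kinase complex, the inhibitors are destroyed and the dimers enter the nucleus. Many of the genes then switched on encode inhibitors and feedback enzymes of the same pathway, and in macrophages this response to bacterial lipopolysaccharide (LPS) is a textbook case.

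The study asked how EHD1, a protein of endocytic recycling, bears on macrophage inflammation, with atherosclerosis as its stated setting. RNA was sequenced from bone marrow-derived macrophages, primary cells grown from marrow progenitors, of male C57BL/6J mice aged 8 weeks. There were 12 libraries in 4 groups of 3: LPS-treated cells with an siRNA against Ehd1 (labelled M1-siEHD1), LPS-treated cells with control siRNA (M1-siCON), cells with siEhd1 and no LPS (M0-siEHD1, called resting here) and resting cells with control siRNA (M0-siCON). All cells had therefore received an siRNA, and no untransfected group was among the samples. The siRNA sequences, the dose and the duration of LPS were not stated in the labels. No group with a different siRNA against Ehd1 was among the samples. Loss of Ehd1 and other effects of the siRNA therefore cannot be told apart. Nor do the labels say whether libraries came from separate mice or cultures, so p-values reflect the scatter among these libraries alone, and that scatter may be technical. In bulk RNA, fewer cells of a type and less RNA per cell cannot be told apart. Levels are in CPM, a gene's counts scaled to a common library total with TMM factors, which correct for library composition. A gene was called when its adjusted p-value in the edgeR quasi-likelihood test across all genes was under 0.05, and log2 fold changes are siEhd1 over siControl or LPS-treated over resting.

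Library totals lay between 18572725 and 22545272 counts. The siRNA target Ehd1 stood at 282, 319 and 304 CPM in LPS-treated siEhd1 libraries, against 678, 631 and 550 CPM in LPS-treated siControl libraries. In resting cells it stood at 33.6, 32 and 29 CPM with siEhd1, against 53.3, 52.1 and 54.4 CPM with siControl. The siEhd1 and siControl libraries did not overlap in either state, and Ehd1 RNA with siEhd1 was at 48.7% and 59.2% of control after LPS and at rest. The 10 macrophage markers summed to 36600 to 38400 CPM and 33500 to 40200 CPM in LPS-treated siEhd1 and siControl libraries, and to 20400 to 21800 CPM and 24600 to 25300 CPM in resting siEhd1 and siControl libraries. Lyz2 alone made 11000 to 11900 CPM of the resting siEhd1 sums and 14200 to 14300 CPM of the resting siControl sums. In resting cells 6 of these 10 markers were called lower with siEhd1 and 0 higher, beside 14.2% of all genes lower and 14.0% higher. After LPS 1 of the 10 was called lower and 0 higher, beside 4.10% of all genes lower and 4.44% higher. Lymphocyte markers summed to at most 0.833 CPM, with Cd3e and Nkg7 at 0 counts throughout, and erythroid and mast cell markers to at most 1.71 CPM, with both haemoglobin genes listed at 0. Neutrophil markers reached 77.6 to 100 CPM in LPS-treated siEhd1 libraries and 43.3 to 74.1 CPM in LPS-treated siControl libraries, of which Mmp8 alone made up to 95.6 CPM. Sums of 7 stromal markers were at most 20.8 CPM, those of 5 endothelial markers at most 207 CPM, mostly Vwf at rest, and those of 8 dendritic cell markers at most 797 CPM, mostly the interferon-inducible Bst2. The part of these differences in the results below was not tested.

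LPS raised most of the family. With siEhd1, 27 of 35 members were higher in LPS-treated than in resting cells, 2 were lower and 6 were not called. Among all genes tested 32.9% were called higher and 34.0% lower in that comparison, with a median log2 fold change of -0.02 over all genes and 1.40 over the members. With siControl, 27 members were higher, 3 lower and 5 not called, beside 34.8% of all genes higher and 34.0% lower, and the median was 1.48 over the members and -0.01 over all genes. Resting and LPS-treated libraries were deposited in separate tables with no batch in the labels, so any difference in handling and the effect of LPS cannot be told apart.

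**Figure D1:**
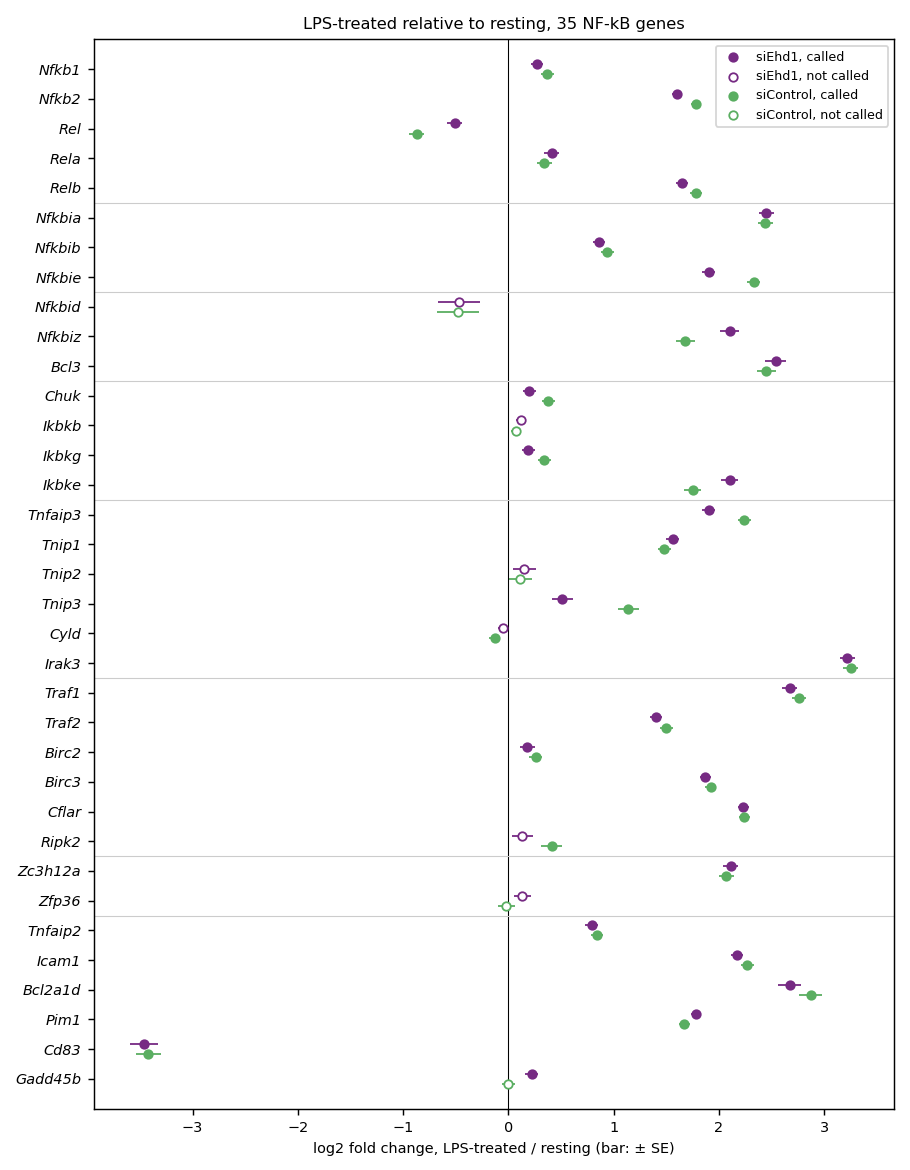
Log2 fold change of LPS-treated over resting cells (horizontal axis) for the 35 NF-kB genes, grouped by role, with siEhd1 (purple) and siControl (green). Points are edgeR estimates from 3 libraries per group, bars are ± SE, and filled points were called. Irak3 lies farthest right at 3.22 and 3.25 and Cd83 farthest left at -3.46 and -3.42 with siEhd1 and siControl.

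Within the subunits the response was split. The gene for the alternative-pathway subunit precursor, Nfkb2, stood at 261, 274 and 280 CPM in LPS-treated and 88.4, 91 and 90.3 CPM in resting siEhd1 libraries, a 3.02-fold rise. With siControl the values were 309, 305 and 282 CPM after LPS and 90.8, 83.9 and 86.4 CPM at rest, or 3.43-fold. Relb, its usual dimer partner, rose 3.14-fold with siEhd1 and 3.44-fold with siControl, over resting levels of 32.6, 31.1 and 31.5 CPM with siEhd1 and 33.1, 34.5 and 33.7 CPM with siControl. The subunits of the classical dimer moved far less. Nfkb1 stood at 220, 233 and 237 CPM in LPS-treated and 183, 198 and 192 CPM in resting siEhd1 libraries, and at 263, 249 and 226 CPM in LPS-treated and 197, 183 and 190 CPM in resting siControl libraries. These are changes of 1.2-fold and 1.29-fold, both called, and Rela rose 1.32-fold with siEhd1 and 1.26-fold with siControl. Rel, whose product c-Rel is prominent in lymphocytes and activated macrophages, went the other way. It stood at 19.5, 18 and 17.5 CPM in LPS-treated siEhd1 cells, against 25.9, 26.3 and 26.1 CPM in resting siEhd1 cells (log2 fold change -0.51 with SE 0.07 and edgeR adjusted p = 1.4e-06). With siControl it stood at 17.8, 17.8 and 19.5 CPM after LPS, against 35.5, 33.7 and 31.8 CPM at rest (log2 fold change -0.87 with SE 0.07 and edgeR adjusted p = 3e-10). All LPS-treated libraries lay below all resting libraries of the same siRNA.

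The inhibitors were among the strongly raised members. Nfkbia, which encodes the main classical inhibitor IkB-alpha, stood at 242, 223 and 224 CPM in LPS-treated and 40.7, 41 and 44.4 CPM in resting siEhd1 libraries. The siControl libraries held 278, 237 and 232 CPM after LPS and 46.4, 47.7 and 43.1 CPM at rest, and the rise was 5.46-fold with siEhd1 and 5.44-fold with siControl. Nfkbib, encoding IkB-beta, stood at 45.8, 50.2 and 48.2 CPM in LPS-treated and 26.4, 26.3 and 26.7 CPM in resting siEhd1 libraries, and at 55, 49.7 and 50.4 CPM in LPS-treated and 28.7, 27.2 and 25.1 CPM in resting siControl libraries. It rose 1.82-fold with siEhd1 and 1.91-fold with siControl, less than the other classical inhibitors. Nfkbie, encoding IkB-epsilon, rose 3.74-fold with siEhd1 and 5.04-fold with siControl, and is taken up again below because the siRNAs differed there. Among the nuclear IkB proteins, which modulate dimers already on DNA, Bcl3 rose 5.82-fold and 5.45-fold and Nfkbiz 4.28-fold and 3.21-fold with siEhd1 and siControl. Nfkbid was not called in this fit, at 9.58 to 14.1 CPM in LPS-treated and 13.3 to 21.2 CPM in resting siEhd1 libraries (log2 fold change -0.47, edgeR adjusted p = 0.06). With siControl it had a log2 fold change of -0.48 (edgeR adjusted p = 0.055). Nfkbid passed the threshold without any 1 of several libraries, with adjusted p down to 0.011 with siEhd1 (without M0_siEHD1 replicate 2; also called without M1_siCON replicate 3 or M1_siEHD1 replicate 3, each 0.049) and down to 0.019 with siControl (without M0_siEHD1 replicate 1; also called without M0_siCON replicate 3, M0_siEHD1 replicate 2, M1_siCON replicate 3 or M1_siEHD1 replicate 2). It was lower as well with DESeq2 (0.011 and 0.0076) and upper-quartile scaling (0.03 with both siRNAs), and with siControl when only the compared groups were fitted (0.0057).

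Of the kinases, the interferon-linked IkB kinase relative Ikbke rose 4.28-fold with siEhd1 and 3.37-fold with siControl. The core complex moved little. The catalytic subunit gene Chuk changed 1.15-fold and 1.3-fold and the scaffold gene Ikbkg 1.14-fold and 1.26-fold with siEhd1 and siControl, all called, while the second catalytic subunit gene Ikbkb was not called with either siRNA, with siEhd1 just outside the threshold (0.12 and 0.07 on the log2 scale, edgeR adjusted p = 0.05 and 0.25). Upper-quartile scaling moved the median LPS effect of all genes by -0.11 with siEhd1 and changed the higher share of called genes to 38.4%, against 49.2% with TMM. Under it the siEhd1 rises of Chuk, Ikbkg, Birc2 and Gadd45b were no longer called (log2 0.09, 0.08, 0.07 and 0.11). The rise of Ikbkg was also lost without M1_siEHD1 replicate 1 (adjusted p = 0.056), and Ikbkb was called without any 1 of M0_siCON replicate 1, M1_siCON replicates 1 and 3 and M1_siEHD1 replicates 1 and 2 (adjusted p from 0.037 to 0.049).

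The feedback genes ranged widely. Irak3, which rose most of all members and encodes a kinase-like brake on Toll-like receptor signalling, stood at 246, 269 and 251 CPM in LPS-treated siEhd1 libraries, against 26.1, 28.4 and 27.7 CPM in resting siEhd1 libraries. That is 9.32-fold, and with siControl the rise was 9.54-fold. Tnfaip3, the gene of a ubiquitin-editing enzyme that shuts signalling off, rose 3.73-fold and 4.73-fold with siEhd1 and siControl. For its partners the rise was 2.94-fold and 2.79-fold for Tnip1 and 1.42-fold and 2.2-fold for Tnip3, in the same order, and Tnip2 was not called (log2 fold changes 0.15 and 0.11). With siEhd1 Tnip2 passed the threshold without M1_siEHD1 replicate 2 (adjusted p = 0.016). The deubiquitinase gene Cyld was called lower with siControl by -0.13 on the log2 scale (edgeR adjusted p = 0.024) and not called with siEhd1 (-0.05), except with upper-quartile scaling (0.0061). The siControl call was lost without M0_siCON replicate 1 or 3 or M1_siCON replicate 1 or 2 (adjusted p up to 0.075) and with no count filter (0.097).

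The adaptor and survival genes rose together in siControl cells, 6 of 6, and 5 of 6 rose with siEhd1. Traf1 rose 6.36-fold and 6.79-fold, Cflar, which encodes an inhibitor of caspase activation, 4.69-fold and 4.72-fold, and the ubiquitin ligase gene Birc3 3.66-fold and 3.78-fold, each with siEhd1 and siControl in that order. Traf2 rose 2.63-fold and 2.83-fold and Birc2 1.13-fold and 1.19-fold. The Birc2 call with siEhd1 was lost without M0_siEHD1 replicate 2 or M1_siEHD1 replicate 1 (adjusted p = 0.11 and 0.091) and with DESeq2 (0.055). Ripk2, the kinase of NOD receptors, was called with siControl (1.33-fold) and not with siEhd1 (1.1-fold), and the difference between the siRNAs was itself not called (log2 -0.28, edgeR adjusted p = 0.3). Of the RNA-binding feedback genes, the RNase gene Zc3h12a rose 4.31-fold and 4.21-fold, and Zfp36, whose product destabilises AU-rich mRNAs, was not called with siEhd1 or siControl (log2 0.13 and -0.02).

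Among the target genes, the adhesion molecule gene Icam1 rose 4.49-fold and 4.81-fold and the survival gene Bcl2a1d 6.36-fold and 7.29-fold with siEhd1 and siControl. Counts of Bcl2a1d are uncertain because mouse has near-identical copies of it and how shared reads were counted is not stated. Pim1 rose 3.42-fold and 3.18-fold, and Tnfaip2 1.73-fold and 1.79-fold. Cd83, a surface marker of activated antigen-presenting cells, was the exception. It stood at 3.98, 4.16 and 2.64 CPM in LPS-treated siEhd1 cells, against 36.3, 40.2 and 43.7 CPM in resting siEhd1 cells, and at 3.7, 4.91 and 5.66 CPM in LPS-treated siControl cells, against 51.6, 49.1 and 53 CPM in resting siControl cells. No LPS-treated library reached any resting one (log2 fold change -3.46 with SE 0.13 and edgeR adjusted p = 1.1e-13 with siEhd1; log2 fold change -3.42 with SE 0.12 and edgeR adjusted p = 4.6e-14 with siControl). Gadd45b was called with siEhd1 (1.17-fold) and not with siControl (1-fold), with no call for the difference between them (log2 0.22, edgeR adjusted p = 0.16).

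Promoters were compared because most members were higher after LPS. RefSeq promoters (GRCm38.p6, the assembly behind mm10, from 250 bases before to 50 after each annotated start) matched 29 of the 35 members by symbol. They were searched on both strands for the kB consensus, the site bound by NF-kB dimers, written as GGG, a purine, any pair of bases, a pair of pyrimidines and CC. It was held by 11 of the 29 members (37.9%), against 1133 of the 9316 tested genes with a promoter (12.2%), and by 2779 of all 32851 promoters (8.5%). With siControl, LPS raised 8 of these 11 members, lowered 2 (Rel and Cyld) and left 1 uncalled (Nfkbid). Of the 18 members without a match, 15 were higher, 0 lower and 3 not called. Matches were thus found in members that rose, fell or were not called. A match is a description of letters and not a shown binding site. The lack of a match holds for this consensus and this window only. The 6 promoters below were chosen from those that hold a match, shown in capitals. They belong to the main classical inhibitor and to members whose siRNA effects are described further on. The searched members with such effects and no match were Birc3, Pim1, Zc3h12a, Rela, Ikbke and Gadd45b. Nfkb1, Relb, Nfkbiz, Ikbkb, Ripk2 and Cd83 had no promoter by symbol and were not searched. Another annotated start of Tnfaip3 had none either.
Nfkbia promoter, chr12:55492598-55492897, minus strand: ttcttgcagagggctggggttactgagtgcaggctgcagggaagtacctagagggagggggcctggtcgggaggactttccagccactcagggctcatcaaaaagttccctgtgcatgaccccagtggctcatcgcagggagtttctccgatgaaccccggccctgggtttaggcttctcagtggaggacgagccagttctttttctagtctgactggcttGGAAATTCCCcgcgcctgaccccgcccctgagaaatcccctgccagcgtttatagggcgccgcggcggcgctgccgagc
Nfkbie promoter, chr17:45555450-45555749, plus strand: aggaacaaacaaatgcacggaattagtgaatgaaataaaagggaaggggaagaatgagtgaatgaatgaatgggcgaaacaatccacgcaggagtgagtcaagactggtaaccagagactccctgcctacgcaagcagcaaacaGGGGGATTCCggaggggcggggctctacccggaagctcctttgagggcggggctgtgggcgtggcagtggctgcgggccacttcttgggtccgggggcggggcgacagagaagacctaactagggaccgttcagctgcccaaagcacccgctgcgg
Tnfaip3 promoter, chr10:19015361-19015660, minus strand: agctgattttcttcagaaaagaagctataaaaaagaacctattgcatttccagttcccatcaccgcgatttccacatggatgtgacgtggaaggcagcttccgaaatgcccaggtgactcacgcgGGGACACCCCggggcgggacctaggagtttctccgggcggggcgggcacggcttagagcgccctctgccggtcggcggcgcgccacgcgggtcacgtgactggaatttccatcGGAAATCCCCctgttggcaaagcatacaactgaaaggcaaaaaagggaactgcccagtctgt
Tnip3 promoter, chr6:65590148-65590447, plus strand: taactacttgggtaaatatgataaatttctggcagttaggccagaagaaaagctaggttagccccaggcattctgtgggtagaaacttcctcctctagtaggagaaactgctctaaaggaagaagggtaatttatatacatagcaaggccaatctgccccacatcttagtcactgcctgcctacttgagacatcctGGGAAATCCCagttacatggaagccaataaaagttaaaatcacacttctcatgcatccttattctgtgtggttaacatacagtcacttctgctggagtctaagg
Tnfaip2 promoter, chr12:111442411-111442710, plus strand: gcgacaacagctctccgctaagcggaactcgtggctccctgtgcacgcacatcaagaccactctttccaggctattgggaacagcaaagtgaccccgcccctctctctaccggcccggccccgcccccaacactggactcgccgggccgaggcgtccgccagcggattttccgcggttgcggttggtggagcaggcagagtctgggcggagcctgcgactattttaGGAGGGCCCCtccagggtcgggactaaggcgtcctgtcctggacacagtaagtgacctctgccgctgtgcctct
Rel promoter, chr11:23770920-23771219, minus strand: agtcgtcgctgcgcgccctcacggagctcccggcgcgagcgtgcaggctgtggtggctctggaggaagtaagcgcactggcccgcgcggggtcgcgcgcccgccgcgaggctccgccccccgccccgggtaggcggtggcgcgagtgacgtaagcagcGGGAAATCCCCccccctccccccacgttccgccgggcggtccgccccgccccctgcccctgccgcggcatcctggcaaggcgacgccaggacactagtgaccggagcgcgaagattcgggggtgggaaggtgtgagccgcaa

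**Figure D2:**
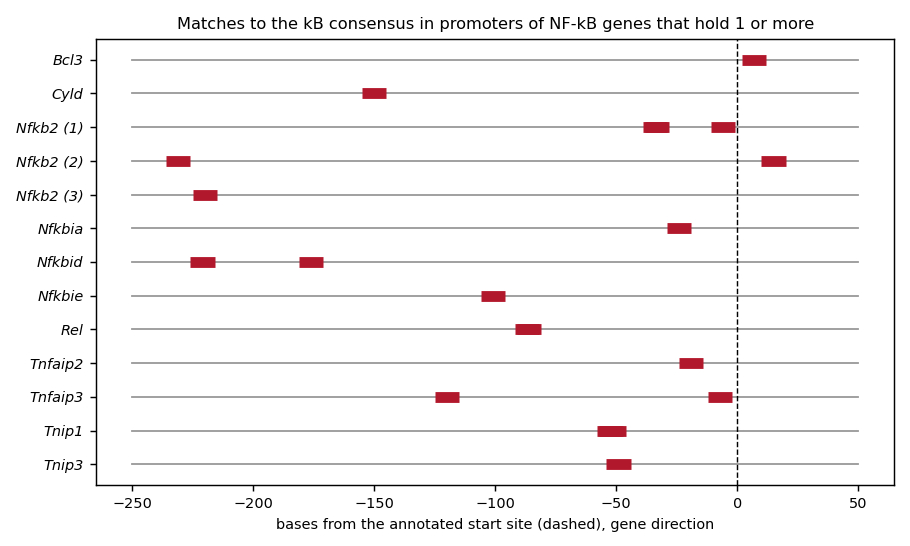
Position of kB consensus matches (red) along the 13 member promoters that hold at least 1, in bases from the annotated start site (dashed line) in the direction of the gene. Matches on either strand are shown, overlapping matches merge into 1 block, and Nfkb2 has 3 annotated starts. In Nfkbia, Tnfaip2 and Tnip3 the single match starts within 54 bases before the start site. Some matches in Nfkb2 and Tnfaip3 do so too.

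After LPS, siEhd1 cells held less RNA of 6 NF-kB genes and more of none. Of 35 members 6 were called lower, 0 higher and 29 were not called, while 4.10% of all genes tested were lower and 4.44% higher. The median log2 fold change was -0.13 over the members and 0.00 over all genes, and 27 of the 35 estimates were negative. At an unadjusted edgeR p under 0.05, 1 member was higher (Ripk2) and 17 were lower, beside 11.0% of all genes higher and 10.4% lower at that threshold. DESeq2 and limma-voom likewise called 0 members higher. Of the 6 calls, 4 depended on the libraries or settings used.

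**Figure D3:**
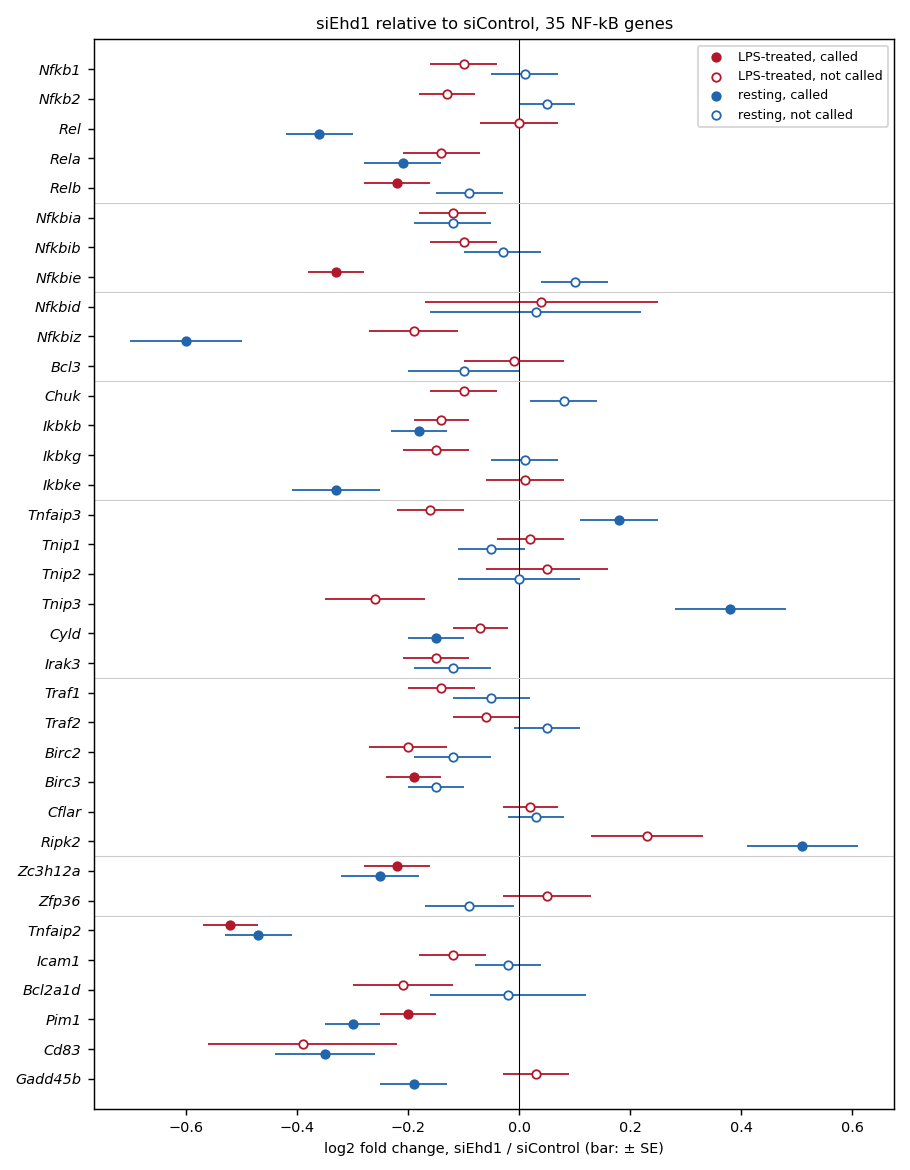
Log2 fold change of siEhd1 over siControl (horizontal axis) for the 35 NF-kB genes, grouped by role, in LPS-treated (red) and resting (blue) macrophages. Points are edgeR estimates from 3 libraries per group, bars are ± SE, and filled points were called. Tnfaip2 was lower in both states, at -0.52 after LPS and -0.47 at rest, whereas Tnip3 and Nfkbie lie on opposite sides of 0 in the 2 states.

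The largest decrease was in Tnfaip2, a TNF-inducible gene whose product takes part in membrane protrusion. It stood at 480, 497 and 510 CPM in LPS-treated siEhd1 libraries, against 749, 700 and 678 CPM in LPS-treated siControl libraries, or 69.9% of control (log2 fold change -0.52 with SE 0.05 and edgeR adjusted p = 5.9e-06). All siEhd1 libraries lay below all siControl libraries by more than the spread within either group. Nfkbie stood at 101, 110 and 110 CPM with siEhd1, against 140, 137 and 126 CPM with siControl, or 79.6% of control (log2 fold change -0.33 with SE 0.05 and edgeR adjusted p = 0.00058). Here too the groups did not overlap. Both calls held under all 20 alternatives.

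The other 4 decreases were smaller. Relb stood at 98, 98.6 and 103 CPM with siEhd1, against 126, 115 and 107 CPM with siControl (log2 fold change -0.22 with SE 0.06 and edgeR adjusted p = 0.017). Birc3 stood at 222, 234 and 229 CPM with siEhd1, against 275, 255 and 253 CPM with siControl (log2 fold change -0.19 with SE 0.05 and edgeR adjusted p = 0.022). In both genes M1_siCON replicate 1 was the highest library and the groups did not overlap. Zc3h12a stood at 104, 110 and 109 CPM with siEhd1, against 126, 123 and 127 CPM with siControl (log2 fold change -0.22 with SE 0.06 and edgeR adjusted p = 0.027). Pim1, a survival kinase gene, stood at 187, 188 and 181 CPM with siEhd1, against 212, 209 and 216 CPM with siControl (log2 fold change -0.20 with SE 0.05 and edgeR adjusted p = 0.016). Again no siEhd1 library overlapped a siControl one. Without M1_siEHD1 replicate 1 all 4 calls were lost (adjusted p = 0.082 for Relb, 0.11 for Birc3, 0.13 for Zc3h12a and 0.055 for Pim1) and the count of lower members was 2, while 607 genes in all were called, against 1039 with all libraries. The Relb call was lost as well when M1_siCON replicate 1 or M1_siEHD1 replicate 2 was left out, the Birc3 call when M1_siCON replicate 1 or M1_siEHD1 replicate 3 was left out, the Zc3h12a call without M1_siCON replicate 2 or 3 or M1_siEHD1 replicate 3, and the Pim1 call when M1_siCON replicate 3 or its M1_siEHD1 counterpart was left out (adjusted p from 0.052 to 0.089). Fitting only the LPS-treated groups also lost Relb and Birc3 (0.061 and 0.063).

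Most of the pathway's core was not called after LPS. Nfkbia (log2 -0.12), Nfkbib (-0.10), Nfkb1 (-0.10), Nfkb2 (-0.13) and Rela (-0.14) had edgeR adjusted p = 0.32, 0.35, 0.35, 0.11 and 0.24. Rela was at 139, 166 and 147 CPM with siEhd1 and 168, 172 and 156 CPM with siControl, so that its groups overlapped. Rel had a log2 fold change of 0.00. None of the 4 kinase genes and none of the 6 ubiquitin-editing and feedback genes was called in this fit, although Tnip3 (log2 -0.26, edgeR adjusted p = 0.12) passed the threshold without M0_siCON replicate 1 (0.023) and with only the LPS-treated groups in the fit (0.021). Ikbkg (-0.15) and Cd83 (-0.39) passed it without M1_siCON replicate 1 (adjusted p = 0.048 and 0.049). Birc2 came close (-0.20, edgeR adjusted p = 0.057), at 23.6, 22 and 22.4 CPM with siEhd1 and 25.6, 26.5 and 26.3 CPM with siControl. Ripk2 had the highest estimate, 0.23 (edgeR adjusted p = 0.17).

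At rest, siEhd1 cells held less RNA of 11 members and more of 3, with 21 not called. Among all genes tested 14.2% were lower and 14.0% higher, so calls in this comparison were common. The median log2 fold change was -0.09 over the members and -0.02 over all genes. The members that fell included Rel and Rela among the subunits, Nfkbiz among the nuclear inhibitors, Ikbkb and Ikbke among the kinases, Cyld, Zc3h12a, and 4 of 6 target genes. Those that rose were Ripk2, Tnip3 and Tnfaip3.

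**Figure D4:**
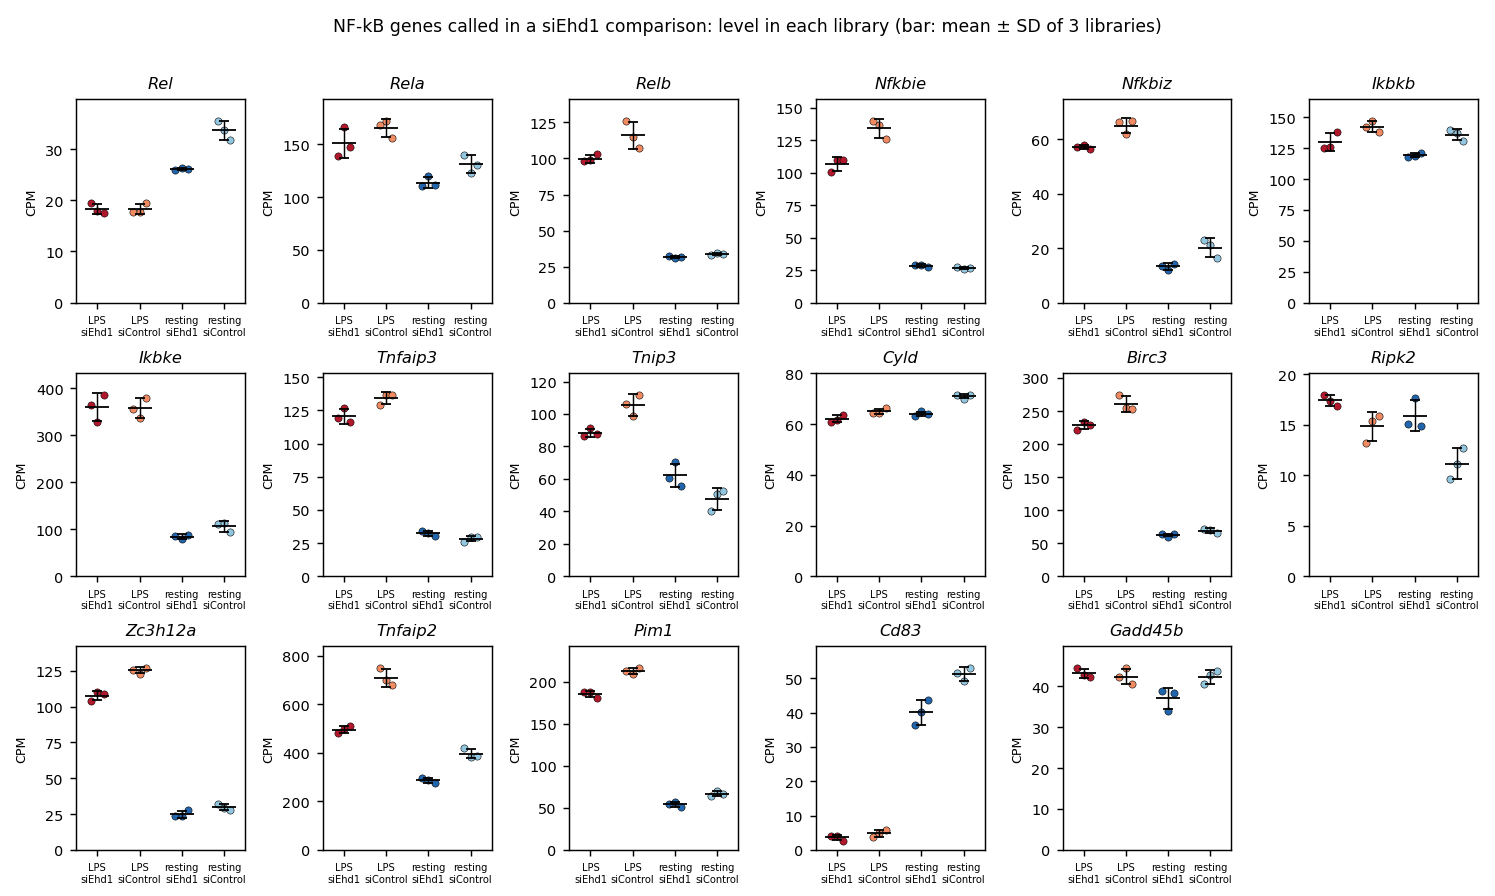
Level in CPM (vertical axes, each from 0) of the 17 members called in at least 1 siEhd1 comparison, in every library of the 4 groups. Points are libraries, horizontal marks the mean and error bars the SD of 3 libraries. Tnfaip2 is lower with siEhd1 in both states, and the resting siEhd1 libraries of Rel, between 25.9 and 26.3 CPM, lie below all resting siControl libraries.

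Nfkbiz, which encodes IkB-zeta, a nuclear cofactor for secondary response genes, fell most. It stood at 13.5, 12.1 and 14.4 CPM in resting siEhd1 libraries, against 23.2, 21.2 and 16.4 CPM in resting siControl libraries, or 65.9% of control (log2 fold change -0.60 with SE 0.10 and edgeR adjusted p = 0.00022). The siControl libraries were spread, with replicate 3 the lowest, but still above all siEhd1 libraries. Tnfaip2 stood at 296, 289 and 276 CPM with siEhd1, against 418, 384 and 387 CPM with siControl (log2 fold change -0.47 with SE 0.06 and edgeR adjusted p = 2.8e-06). Rel stood at 25.9, 26.3 and 26.1 CPM with siEhd1, against 35.5, 33.7 and 31.8 CPM with siControl, or 77.7% of control (log2 fold change -0.36 with SE 0.06 and edgeR adjusted p = 0.00024). Its siEhd1 libraries lay within 1 CPM of each other and below all siControl libraries. Pim1 stood at 53.9, 57.3 and 51.1 CPM with siEhd1, against 64.4, 69.8 and 66.2 CPM with siControl (log2 fold change -0.30 with SE 0.05 and edgeR adjusted p = 0.00025). Ikbke stood at 85.8, 78.7 and 88 CPM with siEhd1, against 112, 113 and 93.3 CPM with siControl (log2 fold change -0.33 with SE 0.08 and edgeR adjusted p = 0.0037). These 5 decreases kept their calls under all 20 alternatives, and so did the increase of Ripk2. Ripk2 stood at 15.1, 17.7 and 14.9 CPM with siEhd1, against 9.6, 11.1 and 12.7 CPM with siControl, or 143% of control (log2 fold change 0.51 with SE 0.10 and edgeR adjusted p = 0.00078).

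The remaining changes at rest were smaller or less stable. Rela stood at 110, 120 and 111 CPM with siEhd1, against 140, 123 and 130 CPM with siControl (log2 fold change -0.21 with SE 0.07 and edgeR adjusted p = 0.024). Cd83 stood at 36.3, 40.2 and 43.7 CPM with siEhd1, against 51.6, 49.1 and 53 CPM with siControl (log2 fold change -0.35 with SE 0.09 and edgeR adjusted p = 0.0085). In both genes the groups did not overlap. Zc3h12a stood at 23.3, 23.8 and 27.8 CPM with siEhd1, against 32.1, 29.4 and 27.8 CPM with siControl (log2 fold change -0.25 with SE 0.07 and edgeR adjusted p = 0.01), with the highest siEhd1 library just under the lowest siControl one. Ikbkb stood at 118, 119 and 121 CPM with siEhd1, against 140, 137 and 131 CPM with siControl (log2 fold change -0.18 with SE 0.05 and edgeR adjusted p = 0.0099). Gadd45b, a stress-inducible gene, stood at 38.9, 34 and 38.3 CPM with siEhd1, against 40.5, 42.7 and 43.7 CPM with siControl (log2 fold change -0.19 with SE 0.06 and edgeR adjusted p = 0.026). No siEhd1 library of either gene reached a siControl one. Cyld stood at 63.3, 65 and 64 CPM with siEhd1, against 71.7, 70 and 71.6 CPM with siControl (log2 fold change -0.15 with SE 0.05 and edgeR adjusted p = 0.023). Tnip3 stood at 60.3, 70.1 and 55.9 CPM with siEhd1, against 40.1, 50.9 and 52.6 CPM with siControl (log2 fold change 0.38 with SE 0.10 and edgeR adjusted p = 0.01). Tnfaip3 stood at 34.4, 32.3 and 30.3 CPM with siEhd1, against 26, 29.9 and 29.4 CPM with siControl (log2 fold change 0.18 with SE 0.07 and edgeR adjusted p = 0.044). For both rising genes all siEhd1 libraries lay above all siControl libraries.

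Several of these resting calls rested on single libraries. Without M0_siCON replicate 1 or without M0_siEHD1 replicate 1 the count of lower members was 7 each time. Calls lost without M0_siCON replicate 1 were Rela (adjusted p = 0.14), Ikbkb (0.051), Tnfaip3 (0.24), Cyld (0.07) and Zc3h12a (0.074). Those lost without M0_siEHD1 replicate 1 were Rela (0.1), Tnfaip3 (0.2), Cyld (0.084), Zc3h12a (0.068) and Cd83 (0.054). Rela was also lost without M0_siEHD1 replicate 3 (0.081), Zc3h12a without M0_siEHD1 replicate 2 (0.053), Cyld without M0_siCON replicate 3 or M0_siEHD1 replicate 3 (0.062 and 0.06) and Gadd45b without M0_siCON replicate 2 or 3 or M0_siEHD1 replicate 2 (0.07, 0.089 and 0.15). Tnfaip3 was lost without 5 further libraries, M0_siEHD1 replicate 2, M1_siCON replicates 2 and 3 and M1_siEHD1 replicates 1 and 3 (0.051 to 0.091), and with DESeq2 (0.063) and limma-voom (0.053). Tnip3 was lost when only the resting groups were fitted (0.059), and Cyld with no count filter (0.061). Birc3, just outside the threshold at rest (log2 -0.15, edgeR adjusted p = 0.051), passed it without M0_siCON replicate 3 or M1_siCON replicate 1 or 3 (0.031 to 0.048) and with limma-voom (0.049). Not called at rest were Nfkb1 (log2 0.01), Nfkb2 (0.05), Relb (-0.09), Nfkbia (-0.12), Nfkbib (-0.03) and Nfkbie (0.10).

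Decreases were called in both states for 3 members, Tnfaip2, Pim1 and Zc3h12a, which are 3 of the 6 lower after LPS and 3 of the 11 lower at rest. Among all genes tested 321 (2.64%) were lower in both states, which is 64.3% of those lower after LPS and 18.6% of those lower at rest, so such overlap was common in these data. The LPS calls of Pim1 and Zc3h12a were among those lost without M1_siEHD1 replicate 1. No member was called higher after LPS. For 4 members the siEhd1 effects after LPS and at rest differed when tested against each other, with 1 positive and 3 negative differences, while 3.12% of all genes had a positive and 2.93% a negative one. Ehd1 itself was at 48.7% of control after LPS and 59.2% at rest, an uncalled difference (log2 -0.28, edgeR adjusted p = 0.12). The libraries of each state were deposited in their own table. The part of either in these differences was not tested.

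Nfkbie was lower with siEhd1 after LPS (-0.33) and had an uncalled 0.10 at rest, where it stood at 29.4, 29 and 27.3 CPM with siEhd1, against 27.2, 25.9 and 26.8 CPM with siControl. The difference was -0.43 on the log2 scale (SE 0.08, edgeR adjusted p = 0.0033). Tnip3 stood at 86.3, 91.2 and 87.6 CPM with siEhd1 after LPS, against 106, 98.5 and 112 CPM with siControl, while its resting siEhd1 libraries were the higher ones. Its difference was -0.63 (SE 0.13, edgeR adjusted p = 0.012). In both states no siEhd1 library of Tnip3 overlapped a siControl one, in opposite directions. Tnfaip3 stood at 119, 127 and 116 CPM with siEhd1 after LPS, against 129, 137 and 137 CPM with siControl, and its difference was -0.34 (SE 0.09, edgeR adjusted p = 0.024). Rel had the opposite sign, a difference of 0.36 (SE 0.10, edgeR adjusted p = 0.028), with its decrease called at rest and an effect of 0.00 after LPS. Put as responses to LPS, these differences are the gap between 3.74-fold with siEhd1 and 5.04-fold with siControl for Nfkbie, 1.42-fold and 2.2-fold for Tnip3, and 3.73-fold and 4.73-fold for Tnfaip3. Those responses share their libraries with the siEhd1 comparisons and are no separate evidence.

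The Nfkbie and Tnip3 differences held under all 19 alternatives. The Tnfaip3 difference was lost without any 1 of M0_siCON replicate 1, M0_siEHD1 replicates 1 and 2, M1_siCON replicate 2 and M1_siEHD1 replicates 1 and 3 (adjusted p from 0.053 to 0.094), and the Rel difference without any 1 of M0_siCON replicates 1 and 2, M0_siEHD1 replicates 1 and 2, M1_siCON replicates 1 and 2 and M1_siEHD1 replicate 1 (0.053 to 0.094). Nfkbiz (0.42, edgeR adjusted p = 0.07) and Ikbke (0.34, edgeR adjusted p = 0.069) were not called, but both passed with DESeq2 (0.041 and 0.03), with no count filter (0.037 and 0.031) and without M0_siCON replicate 3 (0.0023 and 0.011). Ikbke passed as well without M1_siCON replicate 3 (0.042) or M1_siEHD1 replicate 2 (0.027).

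The 3 prime UTRs of the members were searched for GCCTTGT, a 7-base sequence already known from these data to be frequent in genes lower with siEhd1. Why it is frequent there was not tested. In the longest annotated 3 prime UTR of each gene (GENCODE M21, GRCm38), 1538 of 11243 searched genes held it (13.7%). After LPS, 231 of 475 lower genes held it (48.6%), but 0 of the 6 lower members did. At rest 445 of 1628 lower genes held it (27.3%), and 2 of the 11 lower members did, Rel and Cyld. The 3 members with the sequence in all were Rel, Cyld and Ikbkg, which has 3 copies and was not called in either siEhd1 comparison (-0.15 after LPS and 0.01 at rest). Over all members 3 of 35 held it (8.6%). Their 3 prime UTRs were among the longest of the members (5418 bases in Rel, 4932 in Cyld and 5495 in Ikbkg). Cflar, with 4962 bases, held no copy. The part of length was not tested. All sites are shown, with the searched letters in capitals and flanking bases on both sides (GRCm38).
Rel site, chr11:23741452-23741480, minus strand: cttctctcccaGCCTTGTgtctccttcag
Cyld site, chr8:88748687-88748715, plus strand: gctataggctaGCCTTGTcttcatcatcc
Ikbkg site, chrX:74450124-74450152, plus strand: ctggttctaggGCCTTGTggtttcttcct
Ikbkg site, chrX:74450361-74450389, plus strand: gggcctttaaaGCCTTGTaattctgctag
Ikbkg site, chrX:74452434-74452462, plus strand: ctccatcttcaGCCTTGTgttgatctaat

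Outside the members, 71 further genes of the pathway and its targets were listed and 67 were tested. After LPS 5 of them were lower and 3 higher with siEhd1 (median -0.04), beside 4.10% of all genes lower and 4.44% higher. At rest 13 were lower and 8 higher (median -0.07), beside 14.2% of all genes lower and 14.0% higher, so that calls among these genes at rest were about as common as among all genes. The smallest p-values after LPS belonged to the chemokine gene Ccl4 (25.4 ± 1.99 CPM with siEhd1 and 17.4 ± 1.91 CPM with siControl, log2 0.55) and to Irak2, a kinase gene of Toll-like receptor signalling (81.1 ± 3.09 CPM with siEhd1 and 101.8 ± 4.29 CPM with siControl, log2 -0.33). They were followed by Sqstm1, the gene of a ubiquitin-binding scaffold (860.9 ± 31.9 CPM with siEhd1 and 1091 ± 42.7 CPM with siControl, log2 -0.34), and by Ccl3 (53.1 ± 4.19 CPM with siEhd1 and 39.2 ± 0.486 CPM with siControl, log2 0.44; SD, n = 3 for each value). All 4 were called by edgeR, Ccl4 and Ccl3 as higher and Irak2 and Sqstm1 as lower. At rest Trim30a (121.5 ± 7.19 CPM with siEhd1 and 161.0 ± 4.69 CPM with siControl, log2 -0.41), Irak2 (71.0 ± 2.35 CPM with siEhd1 and 90.8 ± 1.92 CPM with siControl, log2 -0.36) and Nlrc5 (58.7 ± 2.25 CPM with siEhd1 and 90.4 ± 9.40 CPM with siControl, log2 -0.62) fell, and Ubash3b (78.0 ± 6.33 CPM with siEhd1 and 55.0 ± 7.40 CPM with siControl, log2 0.50) rose. By list, to be read against the same shares of all genes, 2 of 19 upstream LPS signalling genes were lower after LPS and 0 higher, and 4 were lower and 1 higher at rest. Among 17 tested cytokine and enzyme targets 3 were higher and 1 lower after LPS, and likewise 3 higher and 1 lower at rest. Among 11 linear ubiquitin and deubiquitinase genes 1 was lower and 0 higher after LPS, and 2 were lower and 1 higher at rest. Among 10 other NF-kB regulators 1 was lower and 0 higher after LPS, and 4 were lower and 1 higher at rest. The last list held 10 receptor, adaptor and kinase genes, and not the members Nfkb2 and Relb. These were Map3k14, Traf3, Ltbr, Cd40, Tnfrsf1b, Tnfrsf1a, Tank, Tbk1, Tradd and Ripk1. Of these 10 edgeR called 0 after LPS (1 lower and 0 higher at an unadjusted p under 0.05), and 2 were higher and 2 lower at rest. Over all 67 tested genes of these lists, the lower count after LPS was 2 without M1_siEHD1 replicate 3. It was 3 without M1_siEHD1 replicate 1 or M1_siCON replicate 2, and 8 without M1_siCON replicate 1. At rest, 8 of the 67 were lower without M0_siCON replicate 1 or M0_siEHD1 replicate 1. At rest 4 or 5 of the 67 were higher without any 1 of M0_siCON replicates 1, 2 and 3 and M0_siEHD1 replicates 1 and 2.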

How the data were processed

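Raw counts were deposited by the authors in 2 tables keyed by symbol, 1 for resting and 1 for LPS-treated libraries. The submitters' processing notes list STAR 2.7.6a and featureCounts 2.20.0 with genome build mm10, besides Trim Galore 0.6.3 with cutadapt, FastQC 0.10.1, R 4.4.2 and DESeq2 1.46.0, with no role or order. Annotation, strand setting and the handling of shared reads were not stated, so overlapping or near-identical genes are uncertain. Per the labels' protocols RNA was column-purified and libraries were polyA-enriched. All 12 columns were matched through library names and 0 were left unused.

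Counts of all genes were tested in 1 fit with edgeR 4.0.16 in R 4.3.3 (filterByExpr by group with minimum count 10 and minimum total 15, TMM, robust quasi-likelihood F test, 8 residual degrees of freedom). Benjamini-Hochberg adjustment ran over all 12164 genes at 0.05, and all adjusted p-values come from edgeR unless another tool is named. SE is the absolute log2 fold change over the square root of F. The fit was also run on simulated counts with changes in the LPS-treated siEhd1 libraries alone. That setting is simpler than these data, so it does not vouch for the calls here. Alternatives were DESeq2 1.42.0, limma-voom (limma 3.58.1), other scalings, no filter, only the compared groups, a replicate block and leaving out each library. No 2 libraries of a group were identical, and all pairs differed by more than sampling noise. The members and gene lists were chosen with earlier results of these data known. Members called with siEhd1, the subunits and the classical inhibitors are given per library. Outside the members, Ehd1 and the 4 called pathway genes with the smallest p per siEhd1 comparison are named.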

Additional observations from a re-analysis of the deposited data

Results flagged for a closer look

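The siEhd1 effect differed between LPS-treated and resting cells for 4 members by the interaction test of edgeR, given as the effect after LPS minus the effect at rest on the log2 scale. The differences were -0.43 for Nfkbie (adjusted p = 0.0033), -0.63 for Tnip3 (adjusted p = 0.012), -0.34 for Tnfaip3 (adjusted p = 0.024) and 0.36 for Rel (adjusted p = 0.028). Alternatives gave adjusted p up to 0.094 for Tnfaip3 and for Rel. No explanation of these differences was tested.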

How the results depend on the processing

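No member that was called changed direction in any alternative run. Calls of 6 of 14 members at rest, 2 of 6 after LPS and 2 of 4 for the difference between states held under every alternative, and 25 of 29 and 29 of 30 did for the LPS responses with siEhd1 and siControl. Leaving out 1 library at a time gave 7 to 12 lower members at rest, 4 to 9 higher and 8 to 14 lower pathway genes at rest, and after LPS 2 to 7 lower members, 2 to 8 lower pathway genes and 607 to 1100 called genes in all. For the difference it gave 0 to 3 members with a positive value and 453 to 783 called genes. Members with a positive difference numbered 3 with DESeq2 and 3 with no count filter, and lower members in the LPS response with siEhd1 numbered 4 with upper-quartile scaling. Replicate numbers are shared between groups in the labels. Deviations from the group mean were correlated between same-numbered libraries. The values were -0.06, -0.14 and -0.17 between the resting groups and -0.04, 0.19 and 0.09 between the LPS-treated groups. They were 0.01, 0.25 and 0.10 between the siEhd1 groups and 0.00, 0.04 and -0.16 between the siControl groups. Differently numbered libraries of the resting groups had values from -0.14 to 0.27. With 3 libraries per group such values cannot settle whether libraries were paired. The labels state no pairing, and the main fit had none. With the replicate block within each state 3 members were lower after LPS, without Relb, Birc3 and Zc3h12a (adjusted p = 0.056, 0.07 and 0.073), and 0 had a positive difference. The differences of Rel and Tnfaip3 (0.072 and 0.06) and the resting calls of Tnfaip3, Cyld and Gadd45b (0.08, 0.073 and 0.051) were not called under it. No alternative was left out. The causes of these changes were not tested, and the leave-one-out fits also held fewer libraries. With 3 libraries per group, changes of the size of many uncalled members could not be told from the spread.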
